A study of Mus musculus with 2 samples.

Results

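Periportal hepatocytes were taken from 2 single-cell RNA-sequencing libraries of mouse liver as the lowest of 3 equal groups on a zonation score, computed within each library. They were thus chosen by their own measured expression. The score was the number of UMIs (unique molecular identifiers, each 1 captured RNA molecule) from the pericentral genes Cyp2e1, Cyp1a2, Cyp2c29 and Gulo, divided by those plus the UMIs from the periportal genes Cyp2f2, Hal, Ass1, Hsd17b13 and Sds. It was computed for the barcodes that passed a hepatocyte filter: at least 5000 UMIs, at least 1% of UMIs from Alb, over 2.5% and up to 25% from mitochondrially encoded genes, under 0.06% from Glul, and fewer than 3 of 15 markers of other liver cells detected. The members numbered 345 of 1034 hepatocyte barcodes in WT and 309 of 927 in HKO, together 654 of 1961. These hepatocytes were part of 5267 barcodes with at least 5000 UMIs and of 50078 barcodes in all.

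The WT library came from wild-type littermates, and the HKO library came from mice that lack miR-33 in hepatocytes and that the labels give with the genotype AlbCRE, a Cre recombinase driven by the albumin promoter. Both groups ate a CD-HFD, a choline-deficient high-fat diet that induces steatohepatitis, for 6 months from 8 weeks of age, so neither library shows a healthy liver. Each library was 1 suspension pooled from 3 livers, in which hepatocytes and sorted nonparenchymal cells had been mixed in equal numbers. With 1 library per genotype there was no replicate, the variation among animals is unknown, and no test was made. Intervals (95%) beside ratios reflect counting error and nothing else. A gene was counted as higher or lower when its level differed at least 1.5-fold, which is a size and not a test.

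Hepatocytes are zoned along the blood flow of the liver lobule. Periportal cells, which meet incoming blood rich in oxygen and nutrients, are known for urea synthesis, gluconeogenesis, amino acid breakdown and the secretion of plasma proteins. Pericentral cells, next to the outflow vein and under the influence of Wnt signals, are known for drug metabolism by cytochromes P450, glutamine synthesis and bile acid synthesis. miR-33 is encoded in an intron of Srebf2 and represses genes of cholesterol export and fatty acid oxidation.

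The sequence that the deletion removes is shown first, with the sites at which it can pair, because the targets are read below in periportal cells. The mature strand (RefSeq, GRCm38.p6, chr15:82198127-82198147, plus strand) is given with the seed, bases 2 to 8, in capitals.
mmu-miR-33-5p: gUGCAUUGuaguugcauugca
Matches to the seed were sought on the sense strand of the longest annotated 3′UTR of each gene (GENCODE M21, GRCm38) as the 8mer CAATGCAA, the 7mer CAATGCA or the 7mer AATGCAA. The 8mer contains both 7mers, and each gene was counted at its longest match. The sites of 4 established targets are shown 5′ to 3′ with the match in capitals.
Abca1, chr4:53033801-53033822, minus strand: gtactgacactattCAATGCAA
Crot, chr5:8966685-8966706, minus strand: ctgtgttgcaaccaCAATGCAA
Cpt1a, chr19:3385472-3385493, plus strand: tcctgagcagttacCAATGCAA
Hadhb, chr5:30184135-30184155, plus strand: gggcaatgccatttCAATGCA
Abca1, the exporter of cellular cholesterol, held 3 matches, which overlap or lie side by side within its 3′UTR. Crot and Cpt1a, which hand fatty acids to peroxisomal and mitochondrial oxidation, held 1 each. Any of the 3 matches was present in 1092 of the 6570 genes measured in periportal cells with an annotated 3′UTR, 16.6%, and the 8mer in 132, 2.01%.

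The cut fell at different scores in the libraries. It lay at a pericentral share of 0.0771 in WT and 0.0265 in HKO. The last member inside had 0.0769 in WT and 0.0263 in HKO, and the first barcode outside had 0.0776 and 0.0267. Within 0.01 of the cut lay 60 WT and 176 HKO barcodes, so in HKO the border ran through a dense range. No UMI of the 4 pericentral genes was found in 12 WT and 130 HKO members. With 1 cut for both libraries, at 0.0442, the members would have numbered 209 in WT and 431 in HKO. The highest group on the score is called the pericentral zone below, and the group between is the middle zone. The cut between these lay at 0.312 in WT and 0.151 in HKO. The HKO pericentral zone thus began at a score that fell in the middle zone of WT, and ratios between the libraries compare unlike ranges of the score there too.

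**Figure D1:**
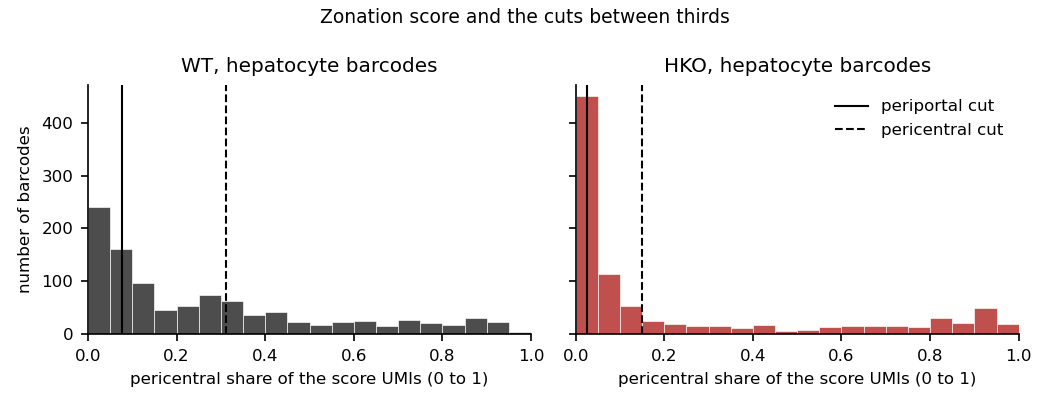
Number of hepatocyte barcodes (vertical axis) by zonation score, the pericentral share of the score UMIs (horizontal axis, 0 to 1), in WT and HKO, with the periportal cut as a solid line and the pericentral cut as a dashed line. The lowest bin holds 240 WT and 450 HKO barcodes, and the periportal cut lies at 0.0771 in WT and 0.0265 in HKO.

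The members differed in depth between the libraries and between the zones. WT members had a median of 28280 UMIs with 4622 genes detected, and HKO members a median of 14960 with 3251. Thinned to 5000 UMIs per barcode, it was 1726 and 1671 genes. The middle zone had a median of 9294 UMIs in WT and 11782 in HKO, and the pericentral zone 16320 and 11765. Summed, the members held 10897908 UMIs in WT and 4959677 in HKO, or 8.35% and 9.44% of each library. The mitochondrial share was 14.4% and 14% (medians) in periportal barcodes and 9.63% and 13.1% in pericentral ones. Barcodes with fewer than 5000 UMIs, which include droplets with free RNA only, had a score of 0.332 in WT and 0.405 in HKO when summed, well above either periportal cut. The part of depth and of free RNA in the results below was not tested beyond the settings named with them.

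Transcripts of other cell types were scarce in the members, and 15 such markers had been used by the filter. Their summed levels, in UMIs scaled to a total of 1000000 per zone (CPM), were 9.54 in WT and 11.5 in HKO for 11 macrophage markers (Timd4 at 0 in both). They were 15.7 and 14.1 for 10 endothelial markers (none at 0). For 9 stellate cell markers they were 4.68 and 7.66 (Col1a2 at 0 in both, Hgf in HKO). The 9 T and NK cell markers summed to 4.96 and 4.44 CPM (Gzma at 0 in both, Cd3d in WT, Cd3e in HKO), and the 8 B cell markers to 10.3 and 12.9 CPM (Cd79b at 0 in both, and 1 more in HKO). The 4 neutrophil markers summed to 14.4 CPM in WT, where 1 barcode carried 97.8% of the S100a9 UMIs, and to 0.807 CPM in HKO (Csf3r and Retnlg at 0). The 5 red cell genes summed to 62.3 and 73.0 CPM, most of it Alas2, the heme synthesis enzyme. The 6 cholangiocyte genes reached 222 and 118 CPM through Sox9 and Spp1 alone. The defining bile duct keratins Krt19 and Krt7 were at 0 in both libraries, and Epcam had 0 UMIs in WT and 1 in HKO. Sox9, a transcription factor of duct cells and of hepatocytes beside the ducts, was at 92.6 and 48.0 CPM in WT and HKO, and Spp1 at 129 and 70.0 CPM, with 51.0% of the WT UMIs of Spp1 in 1 barcode. In the pericentral zones Sox9 was at 28.3 and 22.4 CPM and Spp1 at 44.5 and 36.6 CPM.

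The genes that set the score are given as a description. Cyp2f2, a periportal cytochrome P450, was at 1181 and 1131 CPM in the WT and HKO periportal zones, against 490.2 and 487 CPM in the pericentral zones. Hal, which opens histidine breakdown, was at 579 and 717 CPM against 177 and 184 CPM. Sds, the serine dehydratase, had the steepest gradient of the 5, 331 and 281 CPM against 64.2 and 55.5 CPM. Ass1, the urea cycle enzyme that joins citrulline and aspartate, had the shallowest, 1409 and 1421 CPM against 913 and 943 CPM. Hsd17b13, a lipid droplet enzyme, was at 808 and 720.0 CPM against 391 and 359 CPM. Cyp2e1, the ethanol-oxidizing P450 that carries most of the pericentral UMIs, was at 124 CPM in WT members and 33.9 in HKO members, against 4112 and 4610.3 CPM in the pericentral zones. The level of the 5 periportal genes was thus close between the libraries, and the remaining pericentral signal was the lower one in HKO.

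The genes that followed the score are given next. The 9 genes of the score, which differ by construction, are left out of the counts. Since the same cells had been ordered by their own expression, the ratios of the periportal over the pericentral zone are a description in each library. Of 7015 genes with a mean of at least 10 CPM in WT, 128 (1.82%) passed 1.5-fold on the periportal side and 421 (6.0%) on the pericentral side. In HKO, 153 of 6816 genes (2.24%) were higher and 563 (8.26%) lower. The 2 libraries shared 82 of the higher genes, 64.1% of the WT list and 53.6% of the HKO list, and 244 of the lower ones, 58.0% and 43.3%. No gene was higher in one library and lower in the other. The median of all genes lay at -0.14 in WT and -0.15 in HKO on the log2 scale, and 5174 of the 7015 genes in WT and 4885 of the 6816 in HKO were below 0. Set to a median of 0, the calls were 202 higher and 264 lower in WT and 265 higher and 323 lower in HKO, so the excess of lower genes was smaller under that scaling.

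The 10 genes outside the score most periportal in both libraries, at a mean of at least 50 CPM in each, were Etnppl, Ctsc, Serpina1e, Aldh1b1, Hsd17b6, Esr1, Gls2, Ncam2, Plxna2 and Atp1b1. Etnppl, which breaks down phosphoethanolamine, was at 204, 108 and 38.9 CPM in the periportal, middle and pericentral zones of WT and at 188, 159 and 42.5 CPM in HKO. This is a ratio of 5.24 (4.63 to 5.94) in WT and 4.42 (3.77 to 5.2) in HKO. Ctsc, the lysosomal protease cathepsin C, had ratios of 4.55 and 4.81, and Aldh1b1, a mitochondrial aldehyde dehydrogenase, 4.3 and 5.33. Serpina1e, of the alpha-1-antitrypsin family, had 4.34 and 4.23, though its reads can be split with near-identical copies. Hsd17b6, a steroid and retinol dehydrogenase, had 3.65 and 5.03, Gls2, the liver glutaminase that feeds ammonia to the urea cycle, 2.89 and 3.16, and Esr1, the estrogen receptor, 2.92 and 3.16. Ncam2 (ratios of 2.91 and 2.63), Plxna2 (3.31 and 2.25) and Atp1b1, a sodium pump subunit (2.18 and 2.3), completed the list. The size of these gradients moved with the settings (other filters, scalings, depths and cuts), that of Etnppl from 3.18 to 7.61 in WT and 4.01 to 7.76 in HKO and that of Aldh1b1 from 2.81 to 5.61 and 4.22 to 12.4, and in WT that of Ctsc from 2.79 to 5.89. In HKO the gradient of Hsd17b6 lay from 3.78 to 7.83 and that of Ncam2 from 2.35 to 4.39. All 10 were ordered periportal, middle, pericentral in HKO, and 9 of 10 in WT, where Esr1 was at 75.2 and 77.2 CPM in the first and the middle zone.

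**Figure D2:**
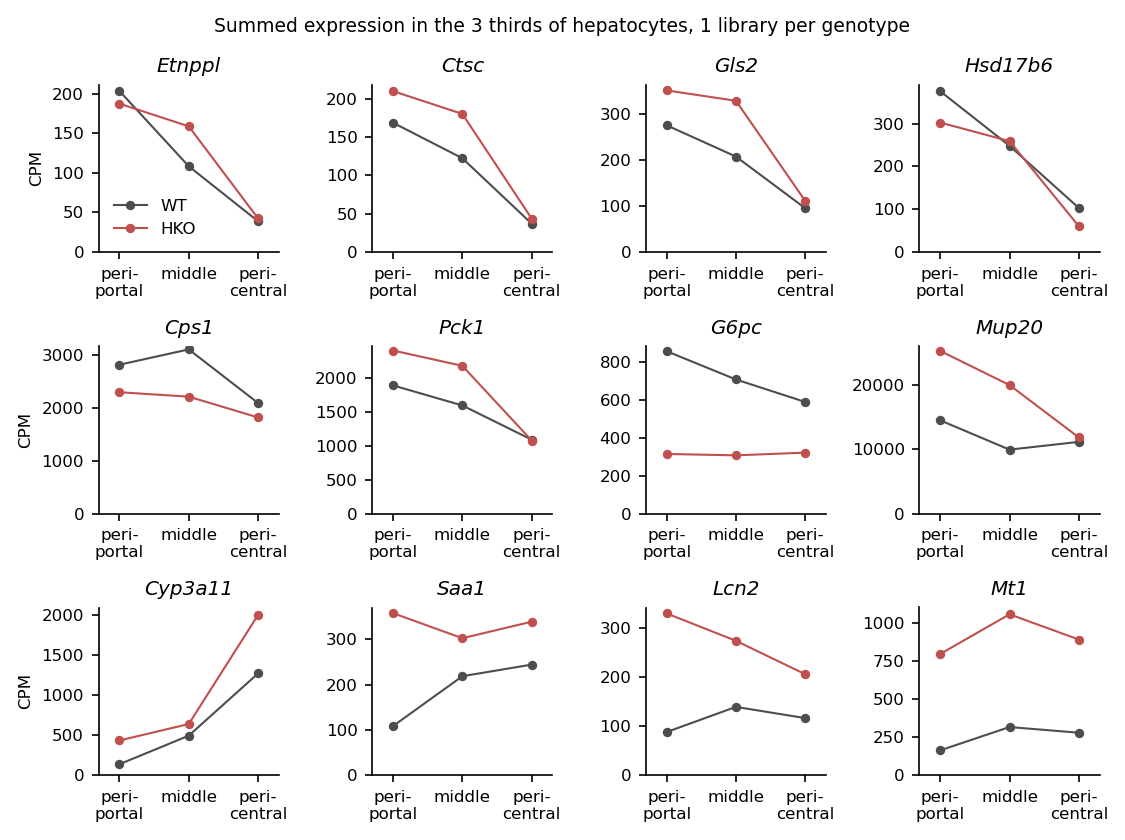
Summed level in CPM (vertical axes, from 0) of 12 genes outside the score in the periportal, middle and pericentral zones, with WT in grey and HKO in red and 1 point per library. Etnppl, Ctsc, Gls2 and Hsd17b6 fall off from the periportal zone in both libraries, G6pc goes from 856 to 588 CPM in WT and from 314 to 321 CPM in HKO, and Mup20 goes from 25313 to 11843 CPM in HKO.

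Of 18 further genes known as periportal, 8 of the 16 measured in WT and 12 of the 18 in HKO were at least 1.5-fold higher in the periportal zone and 1 lower in each, Cyp8b1 of bile acid synthesis, which is also on the mid-lobular list. Apoc2, an apolipoprotein, had ratios of 1.82 and 1.87, Igf1, the liver's growth factor, 1.49 and 1.51, and Pigr, the receptor that carries antibodies into bile, 1.18 and 1.28.

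The urea cycle was periportal but with shallow gradients. Of its 7 genes outside the score, 2 were at least 1.5-fold higher in the periportal zone in each library, and the median was 0.33 in WT and 0.34 in HKO (log2). Asl, the argininosuccinate lyase, was among these, with ratios of 1.58 and 1.58. Cps1, which commits ammonia to the cycle, had 1.35 and 1.26, and Otc 1.23 and 1.32. The transporter gene Slc25a15 had 1.26 and 1.12, while Slc25a13, another transporter gene, had 0.916 and 0.902 and the activator gene Nags 1.08 and 0.966.

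Gluconeogenesis had a median of 0.54 in WT and 0.23 in HKO, with 3 of the 9 genes measured higher in each library. In WT these were Pck1, which makes phosphoenolpyruvate, Fbp1 and the transaminase gene Got1, and in HKO Pck1, Got1 and Tat, the tyrosine aminotransferase. Pck1 had a ratio of 1.74 in WT and 2.23 in HKO. G6pc, the last enzyme of glucose release, had 1.45 (1.4 to 1.51) in WT and 0.978 (0.91 to 1.05) in HKO. Pcx, the pyruvate carboxylase, had 0.729 and 0.754.

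Of 20 genes of amino acid breakdown, 5 were at least 1.5-fold higher in the periportal zone in each library. The clearest were Gls2 (above), the glycine cleavage gene Gldc (2.05 and 2.24), the serine dehydratase-like gene Sdsl (2.47, from 1.51 to 3.04 over the settings, and 2.15) and the histidine pathway gene Amdhd1 (1.92 and 1.99). Prodh, the proline oxidase, ran the other way (0.556 and 0.718), and the tyrosine breakdown genes Hpd and Fah were flat (1.05 and 0.99 in WT). Plasma protein genes leaned to the periportal side, with a median of 0.15 in WT and 0.15 in HKO and 15 and 14 of 18 genes above 0, where 1841 of 7015 and 1931 of 6816 of all genes were. Alb, the gene for albumin, had ratios of 1.58 and 1.62, and Alb also entered the hepatocyte filter. The 13 mitochondrially encoded genes had medians of 0.23 and 0.11, and the cytosolic ribosomal protein genes lay on the pericentral side, at -0.18 and -0.24. The latter lie close to the medians of all genes, -0.14 and -0.15.

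The steepest gradients ran the other way. Of 30 other pericentral genes, 22 of the 23 measured in WT and 24 of the 25 measured in HKO were at least 1.5-fold lower, with medians of -1.75 and -2.96. On the score the zones lay farther apart in HKO than in WT. Median scores of the periportal and pericentral zones were 0.0111 and 0.693 in HKO and 0.037 and 0.581 in WT. The part of this in the HKO gradients was not tested beyond setting 1 pair of cuts for both libraries. A gene at over 10 CPM only through its pericentral level had to differ, so these counts support nothing by themselves. Among all lower genes in WT were also transcripts of other cells, since the 5 red cell genes summed to 786 CPM in the WT pericentral zone against 62.3 in the periportal zone, and the 9 T and NK cell markers to 58.1 against 4.96. In HKO these sums were 132 against 73.0 and 18.3 against 4.44 CPM. The 4 neutrophil markers summed to 27.4 CPM in the HKO pericentral zone against 0.807 in the periportal one. The part of these cells in the gradients was not tested. Cyp2c50, a P450 of the Cyp2c cluster whose members share reads, was at 36.2 and 11.7 CPM in the periportal zones against 341 and 234 CPM in the pericentral zones. Oat, the ornithine aminotransferase, was at 16.8 and 28.6 against 94.8 and 327 CPM, and Lect2, a secreted hepatokine, at 22.4 and 11.3 against 168 and 145 CPM. The Wnt-responsive genes Axin2, Lgr5 and Tbx3 were at 0.734, 0.184 and 0.367 CPM in WT members, and in HKO members Axin2 had 0 UMIs, which allows up to 0.605 CPM, with Lgr5 at 0.202 and Tbx3 at 0.403. Aldh3a2, a fatty aldehyde dehydrogenase, Fitm1, which helps to form lipid droplets, Sult2a8, a bile acid sulfotransferase, Rgn, Tenm3, Ang and Cyp3a11 were the other genes among the 10 most pericentral outside the score at a mean of at least 50 CPM in both libraries, with ratios between 0.0789 (Fitm1 in HKO) and 0.222 (Ang in WT).

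Cholesterol synthesis had medians of -0.54 and -0.45, with 7 of 14 measured genes at least 1.5-fold lower in each library, and fatty acid synthesis had -0.46 and -0.45. Hmgcs1, an early enzyme of cholesterol synthesis, had ratios of 0.289 and 0.372. An exception was Acly, which supplies acetyl-CoA in the cytosol and was higher on the periportal side (1.9 and 1.68). Genes of fatty acid oxidation had medians of -0.29 and -0.33, beside -0.14 and -0.15 for all genes. The lipid droplet genes Cidea and Cidec, at 1.01 and 0.403 CPM and 8.17 and 6.86 CPM in WT and HKO members, were at 30.8 and 40.5 and at 64.8 and 54.6 CPM in the pericentral zones. Bile acid genes had medians of -0.37 and -0.36. Cyp7a1, which starts bile acid synthesis, was at 4.5 and 8.87 CPM in the members against 35.6 and 155 CPM in the pericentral zones. Of the 5 mid-lobular genes, Hamp, the iron hormone hepcidin (2.21 and 1.91), its copy Hamp2 (2.6 and 1.82) and Mup3 (1.67 and 2.04) were higher in the periportal zone. Cyp8b1 (0.627 and 0.496) was lower, and Igfbp2 had 0.831 in WT and 0.467 in HKO.

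Members varied among themselves, most of all in Mup20 and Malat1. At a common depth of 5000 UMIs, the variance over the mean, a measure that grows with the level, had a median of 1.23 in WT and 1.19 in HKO. For Mup20, a major urinary protein, it was 60.9 and 53.7. The level of Mup20 ran from 3488 CPM at the 10th percentile of members to 31184 at the 90th in WT, and from 7194 to 46788 CPM in HKO. Malat1, a nuclear noncoding RNA, came next in WT (48.1) and was the most variable in HKO (62.3). Hamp had 12.7 and 20.7, the desaturase gene Scd1 8.19 and 11.5, and Serpina1e 7.58 and 6.46, with 171 and 300.0 CPM at the median member and 1501 and 1718 CPM at the 90th percentile. The 5 periportal genes of the score had values from 1.42 to 2.3 in WT and from 1.3 to 2.28 in HKO, though the score itself had narrowed their range. Cps1 had 4.95 in WT and 2.53 in HKO.

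The comparison of the genotypes asked how periportal hepatocytes without miR-33 differed from those of WT under the same diet. Of 6734 genes with a mean of at least 10 CPM, 128 (1.9%) were higher in HKO by 1.5-fold or more and 348 (5.17%) lower by as much, and the median of all genes was -0.05 (log2), with 3894 of the 6734 below 0. The counts in gene groups below stand beside these shares of all genes, 1.9% higher and 5.17% lower. Genes of the urea cycle and of amino acid breakdown were close to equal in level. Mt1 and Mt2, 6 of 18 acute phase genes, Mup20 and Cyp3a11 were higher in HKO, while 6 of 14 genes of fatty acid synthesis and 10 of 22 chaperone genes of the endoplasmic reticulum were lower. Depth differed with the genotype (above), and genotype, pool and preparation cannot be told apart. The named genes past 1.5-fold kept their direction in the other ways of scaling, thinning, selecting or grouping the barcodes that were run.

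**Figure D3:**
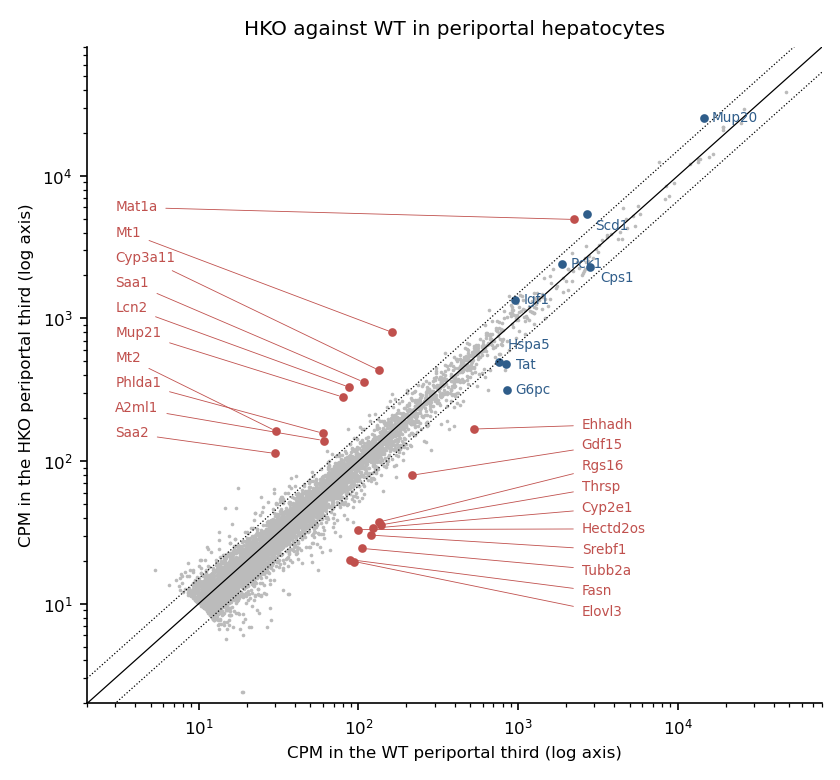
Level of each gene with a mean of at least 10 CPM in the HKO (vertical log axis) against the WT (horizontal log axis) periportal zone, in CPM, with 1 library per genotype. The solid line marks equal levels and the dotted lines 1.5-fold, the 20 genes farthest from equality with a mean of at least 50 CPM are named in red and 8 further genes in blue, and Mt1 stands at 163 CPM in WT and 799 CPM in HKO.

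The loss of miR-33 itself was not visible in the files, since Mir33 is not among the listed genes. Its host gene Srebf2, which does not show it, was at 19.9 and 21.6 CPM in WT and HKO, a ratio of HKO over WT of 1.08 (0.851 to 1.37) that ran from 0.965 to 1.15 over the other settings. None of the 7 urea cycle genes outside the score passed 1.5-fold between the genotypes, and their median was -0.02. Cps1 was at 2817 and 2296 CPM, a ratio of 0.815 (0.798 to 0.833), Otc at 643 and 552 CPM and Asl at 333 and 359.9 CPM. Of 20 genes of amino acid breakdown 1 passed, Prodh at 24.9 and 44.2 CPM (ratio 1.78, 1.48 to 2.13), and the median was 0.00. The lowest ratio in that group was 0.708 for Kynu, an enzyme of tryptophan breakdown.

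Other periportal genes lay somewhat higher in HKO, with a median of 0.31 over 18 genes and 3 past 1.5-fold. The largest by level was Mup20 (chr4:62050234-62054158, GRCm38), at 14506 CPM in WT against 25313 CPM in HKO, giving a ratio of 1.75 (1.73 to 1.76). Its reads can be shared with other genes of the Mup cluster, of which Mup3 was at 7659 and 12525 CPM (ratio 1.64) and Mup21 at 79.6 and 281 CPM (ratio 3.53, 3.24 to 3.85). Apoa4, an apolipoprotein of triglyceride-rich particles, was at 872 and 1445 CPM (ratio 1.66, 1.61 to 1.71). Cyp17a1, a steroid hydroxylase, was at 10.4 and 20.4 CPM (ratio 1.96, 1.49 to 2.59), a value that moved from 1.17 to 2.04 over the other settings. Igf1, the growth factor made by the liver under growth hormone, was at 962 and 1341 CPM, a ratio of 1.39 (1.35 to 1.44), short of 1.5-fold.

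The 2 ends of gluconeogenesis parted. Pck1 was at 1893 CPM in WT against 2409 CPM in HKO, giving a ratio of 1.27 (1.24 to 1.3). G6pc (chr11:101367561-101377903) was at 856 CPM in WT against 314 CPM in HKO, giving a ratio of 0.367 (0.348 to 0.387) that lay from 0.348 to 0.38 over the other settings. Tat was lower too, at 839 and 476 CPM (ratio 0.568, 0.542 to 0.594). Fbp1, Pcx, Slc37a4, Got1 and Ppargc1a lay between 0.886 and 1.15, and Pck2 was under the mean of 10 CPM. Among genes of the insulin and fasting response, 6 of 13 measured were at least 1.5-fold lower and the median was -0.49. Among them, beside G6pc, were the glycogen targeting gene Ppp1r3b (ratio 0.597), the pyruvate dehydrogenase kinase Pdk4 (0.62), the lipoprotein lipase inhibitor Angptl4 (0.593) and Txnip (0.549). Pdk4 and Angptl4 are known to go up with fasting.

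Genes of fatty acid synthesis were among those with the lowest ratios. Srebf1, the transcription factor of fatty acid synthesis (chr11:60199089-60222581), was at 120.1 CPM in WT against 30.2 CPM in HKO, giving a ratio of 0.252 (0.211 to 0.298). Fasn, the fatty acid synthase (chr11:120805846-120824547), was at 88.8 and 20.4 CPM (0.229, 0.185 to 0.282), and Thrsp, a nuclear regulator of lipogenesis, at 138 and 35.7 CPM (0.258, 0.22 to 0.302). Elovl3, which lengthens fatty acids, had the lowest ratio of the genes ranked, 0.209 (0.168 to 0.258), at 94.3 CPM in WT against 19.8 CPM in HKO. Acaca (0.437), Elovl6 (0.548) and the sugar-responsive factor Mlxipl (0.655) were lower as well, which made, without Elovl3, 6 of the 14 measured genes of the list, with a median of -0.38. Scd1 was the exception, the most abundant of them, at 2683 CPM in WT against 5438 CPM in HKO (2.03, 1.99 to 2.06). Its 10th and 90th percentiles over members were 995 and 4886 CPM in WT and 2259 and 10119.7 CPM in HKO, so the members of the libraries overlapped. Fads1 (1.25) and Fads2 (1.29), the other desaturases, and Dgat2 (1.04) stayed within 1.5-fold. Acacb and Pnpla3 were under a mean of 10 CPM.

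For fatty acid uptake and lipid droplets the median was -0.39 over 9 measured genes. Only Plin5, a droplet coat protein, was past 1.5-fold (92.6 and 56.9 CPM, ratio 0.614). Over the other settings Plin5 ran from 0.569 to 0.709, the latter short of 1.5-fold. Plin2 was at 611 and 439 CPM (ratio 0.718) and the fatty acid transporter gene Slc27a2 at 973 and 729.7 CPM (ratio 0.75), and Pnpla2, the droplet triglyceride lipase, had a ratio of 1.38. Fatty acid oxidation was level, with a median of -0.02 over 23 genes, none higher and 2 lower. The 2 were Ehhadh, a peroxisomal enzyme, at 532 CPM in WT against 168 CPM in HKO (0.315, 0.293 to 0.339), and Fgf21, a fasting hormone, at 19.0 and 7.46 CPM (0.393, 0.269 to 0.559, from 0.255 to 0.439 over the other settings). Ppara, a transcriptional regulator of both, was at 214 and 277 CPM (1.3). Of other genes known as its targets, Cyp4a10 was at 1.21 and Cyp4a14 at 1.08, and Acot1 at 0.5, Angptl4 at 0.593, Pdk4 at 0.62 and Acaa1b at 0.718. In cholesterol synthesis and uptake 1 of 13 measured genes was higher, the squalene synthase gene Fdft1 (1.95), and 1 lower, Fdps (0.506, from 0.454 to 0.983 over the other settings). The median was 0.01, with Hmgcs1 at 1.14 (from 0.806 to 1.29 over the other settings).

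Established targets of miR-33 had no common direction in periportal cells. Of 12, 8 were measured, none was at least 1.5-fold higher, 1 was lower, and the median was 0.04. Cpt1a, which brings fatty acids into mitochondria and whose site is printed above, was at 226 CPM in WT against 312 CPM in HKO, giving a ratio of 1.38 (1.29 to 1.47). Abca1 was at 177 and 202 CPM, a ratio of 1.14 (1.05 to 1.23) that ran from 0.967 to 1.19 over the other settings and so did not keep its direction. Crot was at 1223 and 1104 CPM, 0.903 (0.875 to 0.932), on the other side of 1 from its ratio of 1.12 in the pericentral zone. Hadhb was at 1.01 (0.938 to 1.08), Ppargc1a at 1.15 (0.972 to 1.36), Irs2 at 0.863 (0.705 to 1.05, from 0.527 to 0.894 over the other settings) and Atp8b1 at 1.05 (0.908 to 1.22). The last 3 include 1 in their intervals, as does Hadhb, and the ratios of Hadhb, Ppargc1a and Atp8b1 fell on the other side of 1 in some settings. Abcb11, the bile salt export pump, was the lower one, at 328 and 181 CPM (0.553, 0.513 to 0.595), and it held no seed match in its 3′UTR. Abcg1, Prkaa1, Cyp7a1 and Sirt6 were under a mean of 10 CPM.

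Across the transcriptome, genes with and without a match to the seed had like medians. The median log2 ratio was -0.05 over the 132 genes with the 8mer, -0.06 over the 1092 genes with any match and -0.05 over the 5478 genes with none. At least 1.5-fold higher were 1 of the 132 (0.758%), 16 of the 1092 (1.47%) and 95 of the 5478 (1.73%), against 1.69% of the 6570 genes. At least 1.5-fold lower were 3.79%, 4.58% and 5.09%, against 5.01%.

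Bile acid genes had a median of -0.20, with Abcb11 the only one of 14 measured past 1.5-fold, a share near the 5.17% of all genes that were lower. The phospholipid exporter gene Abcb4 was at 304 and 219 CPM (0.722) and Slc10a1, the bile acid importer of the sinusoidal side, at 469.9 and 507 CPM (1.08). Of the 30 other pericentral genes 18 were measured in the members of both libraries, of which 5 were lower and 2 higher, with a median of -0.22. Lower were Cyp2c50 (0.323), Aldh3a2 (0.461), Lect2 (0.504), Rgn (0.576) and Ahr (0.628). The HKO cut on the score was the stricter one, and its part in these ratios was not tested beyond setting 1 cut for both libraries, which left Cyp2e1 itself at 0.577 instead of 0.273. With 1 cut Lect2 stood at 0.698 and Rgn at 0.750, short of 1.5-fold, and Aldh3a2 at 0.600. Cyp2c50 and Ahr stayed past 1.5-fold in all settings, at most at 0.352 and 0.651. Oat (16.8 and 28.6 CPM, ratio 1.71) and Cyp3a11 went against them. Cyp3a11, the main steroid and drug-metabolizing P450 (chr5:145854426-145879964), was at 135 CPM in WT members and 432 CPM in HKO members, a ratio of 3.2 (2.99 to 3.42).

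**Figure D4:**
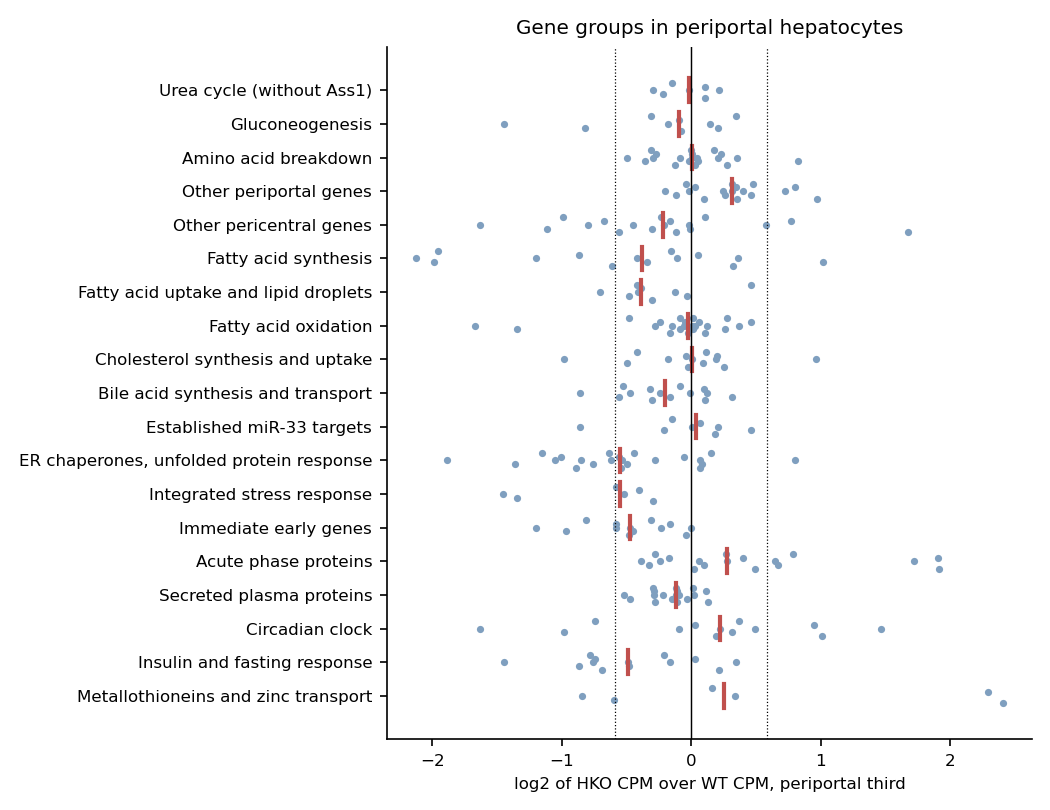
Log2 of the HKO level over the WT level in the periportal zone (horizontal axis), 1 point per gene with a mean of at least 10 CPM and a red bar at the median of each gene group (vertical axis). Dotted lines mark 1.5-fold, the urea cycle sits at -0.02, and the chaperones of the endoplasmic reticulum (ER) and the integrated stress response both sit at -0.55.

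Chaperones and folding enzymes of the endoplasmic reticulum were lower in HKO, with 10 of 22 genes past 1.5-fold, 1 higher and a median of -0.55. The median lay from -0.63 to -0.50 over the other settings. Hspa5, the central chaperone BiP, was at 764 CPM in WT against 498 CPM in HKO (0.652, 0.623 to 0.682), and Hsp90b1 at 821 and 486 CPM (0.592, 0.566 to 0.619). The disulfide isomerase genes Pdia3 (0.538), Pdia4 (0.553) and Pdia6 (0.451), the cochaperone genes Hyou1 (0.39) and Sdf2l1 (0.271), and Manf (0.644), Creld2 (0.482) and Syvn1 (0.498) completed the lower ones. The branch was not lower throughout. The transcription factor gene Xbp1 (1.06) and Herpud1 (0.961), Sel1l (1.05) and Selenos (1.11), which act in the disposal of misfolded proteins, and Dnajb9 (1.05) were level, and Crebrf was higher (1.75). In the pericentral zone Xbp1 and Herpud1 had lower ratios, 0.798 and 0.668. Of the integrated stress response 13 genes were listed in the files and 6 were measured, of which Gdf15 and Fgf21 (above) were at least 1.5-fold lower, with a median of -0.55. Gdf15, a stress hormone, was at 218 CPM in WT against 79.6 CPM in HKO (0.366, 0.328 to 0.407), and Atf4, the transcription factor of this response, at 46.7 and 38.1 CPM (0.816). Of the 13 measured immediate early genes 3 were at least 1.5-fold lower (Zfp36 at 0.571, Dusp1 at 0.511, Ccn1 at 0.436), where 5.17% of all genes were. Their median was -0.47. These genes are known to respond to cell isolation, whose part in the result was not tested. Fos stood at 378 and 322 CPM (0.851), Junb at 205 and 205 CPM (0.997) and Egr1 at 318 and 309 CPM (0.972), and the ratios of Junb and Egr1 were above 1 in some of the other settings.

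Metallothioneins had the highest ratios of the genes ranked. Mt1 (chr8:94179082-94180327), which binds zinc and copper, was at 163 CPM in WT against 799 CPM in HKO, giving a ratio of 4.9 (4.64 to 5.19), and Mt2 (chr8:94172664-94173568) at 30.6 and 162 CPM, a ratio of 5.31 (4.66 to 6.05). The median of the 6 genes of metallothioneins and zinc transport was 0.25, and ran from -0.19 to 2.29 over the other settings, from the value at 5000 UMIs to that at a minimum of 50 CPM, which leaves 3 of them. The zinc transporter genes did not follow them, with Slc30a1 at 1.27 (from 0.814 to 1.35 over the other settings), Slc39a14 at 1.12, Slc39a4 at 0.662 and Slc30a10 at 0.556. Mat1a, which makes the methyl donor S-adenosylmethionine (chr14:41105035-41124412), was the most abundant gene among the 10 highest ratios, at 2243 CPM in WT against 4944 CPM in HKO (2.2, 2.17 to 2.24). Phlda1 (59.7 and 157 CPM, ratio 2.63) and A2ml1, a protease inhibitor (60.6 and 139 CPM, ratio 2.3), were also among them.

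Acute phase genes split. Of 18 measured, 6 were at least 1.5-fold higher in HKO and none lower, and the median was 0.28. Saa1, serum amyloid A (chr7:46740497-46742980), was at 108 and 358 CPM (3.31, 3.07 to 3.56), its near-identical neighbour Saa2 at 30.0 and 113 CPM (3.77, 3.28 to 4.33), and Lcn2, which binds bacterial iron carriers (chr2:32384633-32388252), at 87.6 and 329 CPM (3.76, 3.47 to 4.08). Few members carried much of it, since Saa1 was at 44.2 CPM at the median WT member and 56.9 at the median HKO member, while the 90th percentile was at 225 and 1027 CPM. Of the Saa2 UMIs 24.2% in WT and 13.0% in HKO came from 1 barcode. Orm2 (1.73), Serpina3n (1.57) and Apcs (1.59) made up the 6. Over the other settings Orm2 fell as low as 1.497 and Serpina3n 1.46, short of 1.5-fold, while Apcs stayed past it (at least 1.51). Abundant members of the response stayed within 1.5-fold, among them Hp (0.799), Hpx (0.848), C3 (0.824), Cp (0.764) and the fibrinogen genes Fga, Fgb and Fgg (1.21, 1.05 and 1.01). Of 18 secreted plasma protein genes none passed 1.5-fold, with a median of -0.12. Alb was at 47325 CPM in WT against 38989.6 CPM in HKO (0.824, 0.82 to 0.828). The 13 mitochondrially encoded genes had a median of -0.06, and the 80 measured ribosomal protein genes one of 0.17, with 72 above 0, where 2840 of the 6734 genes were. Of the nuclear noncoding RNAs, Malat1 was at 4493 and 3600.4 CPM (0.801) and Neat1 at 357 and 465 CPM (1.3).

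Clock genes differed in both directions. Of 13 measured, Dbp (17.1 and 47.2 CPM, ratio 2.76, 2.27 to 3.37), Tef (29.8 and 60.1 CPM, ratio 2.01) and Usp2 (11.9 and 23.0 CPM, ratio 1.93) were higher in HKO, and Arntl, which drives the clock (21.3 and 6.86 CPM, ratio 0.322, 0.218 to 0.463), Cry1 (0.597) and Nfil3 (0.506) lower. Over the other settings Usp2 ran from 1.08 to 2.22, Nfil3 from 0.49 to 0.801 and Arntl from 0.191 to 0.334. Below a mean of 10 CPM over the libraries, Npas2, a partner of the Arntl product, was at 11.7 and 2.62 CPM and Per3 at 2.94 and 10.5 CPM. Dbp, Tef and Per3 peak at another time of day than Arntl and Npas2. The hours at which the livers were taken are not given in the sources used here, and genotype and hour cannot be told apart. Rgs16 (134 and 37.3 CPM, ratio 0.279), Tubb2a, a tubulin gene (106 and 24.4 CPM, ratio 0.23), and the noncoding RNA Hectd2os (99.4 and 33.1 CPM, ratio 0.333) were further genes among the 10 lowest ratios.

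Several of these genes differed in the pericentral zone too, some at another size. The ratio of HKO over WT in the pericentral zone was 0.262 for Srebf1 against 0.252 in the periportal zone, 0.39 against 0.366 for Gdf15, 0.246 against 0.279 for Rgs16, and 1.98 against 2.2 for Mat1a. For Elovl3 it was 0.605 (0.529 to 0.69) in pericentral and 0.209 (0.168 to 0.258) in periportal cells. For Saa1 it was 1.39 (1.3 to 1.49) and 3.31 (3.07 to 3.56), for Mup21 1.36 (1.2 to 1.54) and 3.53 (3.24 to 3.85), and for Cyp3a11 1.58 (1.53 to 1.62) and 3.2 (2.99 to 3.42). In each of these the counting intervals of the zones did not overlap. The difference between the zones has no replicate and was not tested. Cyp2e1, at 1.12 and 0.273, is a gene of the score.

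**Figure D5:**
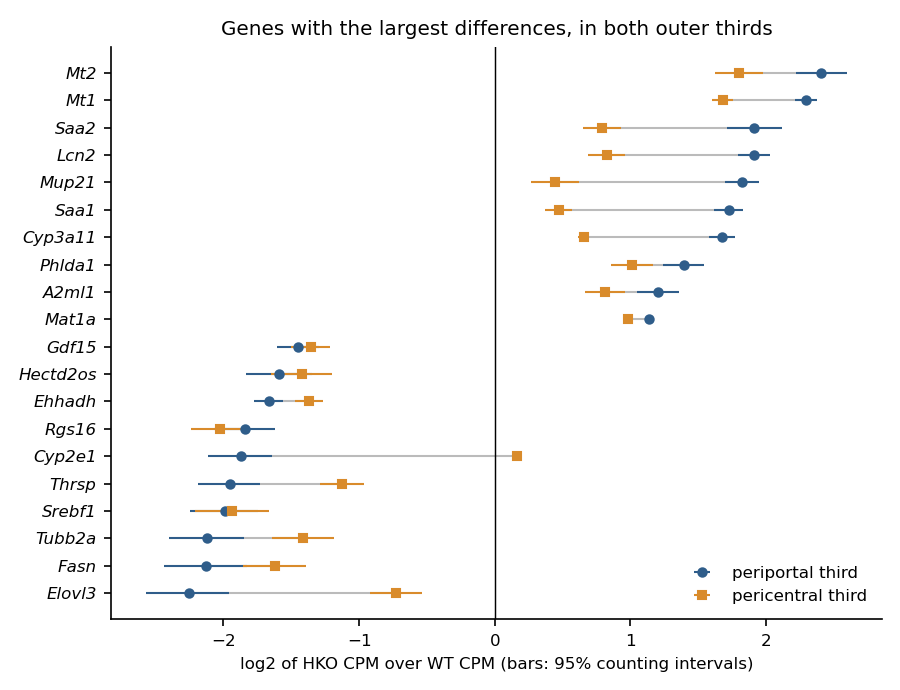
Log2 of the HKO level over the WT level (horizontal axis) in the periportal zone (blue circles) and the pericentral zone (orange squares) for the 20 genes farthest from equality in the periportal zone, with bars for the 95% counting interval. The genes were chosen on their periportal values, so that most lie farther from 0 there follows in part from the choice, and Cyp2e1, a score gene, lies on the other side of 0 in the pericentral zone.

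Seen the other way, as a gradient within each library, genes were ranked among those with a mean of at least 50 CPM in both libraries and at most 25% of UMIs in 1 barcode of any outer zone. Within these limits, 5 genes leaned further to the periportal side in HKO than in WT by the largest amounts. Mup21 had a ratio of periportal over pericentral of 1.01 in WT and 2.61 in HKO (from 1.63 to 2.89 over the settings), Saa1 0.443 and 1.06, Lcn2 0.755 and 1.6, and Cyp3a11 0.106 and 0.216. The other was Gm42418 (0.406, from 0.216 to 0.735 over the settings, and 0.801), which overlaps ribosomal RNA sequence and was at 42198 and 45429 CPM in the barcodes under 5000 UMIs of WT and HKO, against 1611 and 1776 CPM in the members. Saa2 (0.263 and 0.573), outside the limit on 1 barcode, leaned the same way. The 5 that leaned further to the pericentral side in HKO within the limits were Cyp2c50 (0.106 and 0.0499), Oat (0.177 and 0.0875), Csad, of taurine synthesis (0.259 and 0.128), Fitm1 (0.154 and 0.0789) and Acot1, an acyl-CoA thioesterase (0.504 and 0.271). The periportal cut was stricter in HKO (0.0265 against 0.0771), and its part in these gradients was not tested beyond 1 pair of cuts. In periportal cells the HKO over WT ratio of Fitm1 went from 0.726 to 1.19 with that pair. That of Csad went from 0.851 to 1.03 with no other marker. Cyp2c50 (at most 0.352) and Acot1 (at most 0.595) stayed below 1 in all settings, and Oat (at least 1.46) above it. Elovl3, under a mean of 50 CPM in HKO, went from 0.823 in WT to 0.285 in HKO. For Oat and Csad the difference lay mainly in the pericentral cells, where Oat was at 94.8 CPM in WT and 327 CPM in HKO and Csad at 301 and 517 CPM. In periportal cells Csad was at 77.9 and 66.3 CPM. Among the most abundant genes, Mup20 was at 14506 CPM in WT against 25313 CPM in HKO in periportal cells and at 11154 and 11843 CPM in pericentral cells, a gradient of 1.3 in WT and 2.14 in HKO. Mup20 was picked out after its values had been seen.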

How the data were processed

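Single cells from 1 WT and 1 HKO pool of mouse livers were measured by 10x Genomics 3′ RNA sequencing. The authors deposited UMI counts per gene and barcode, whole numbers without normalization, made with Cell Ranger 7.1.0 per the file headers. Per the submitters' processing notes the build was mm10, and R 3.0 and Seurat 3 were named too. The annotation and the counting options are not given in the sources used here; introns are counted by default in that version. The WT barcode sequences were not used here, so barcodes shared by the libraries were not counted. No doublet caller was run; barcodes with 3 or more markers of other cells were left out, and leaving out the deepest 5% was an alternative.

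The libraries held 130451427 UMIs in 30078 WT barcodes and 52563185 in 20000 HKO barcodes. The hepatocyte filter left 2827, 2465, 1252, 1217 and 1034 WT barcodes and 2440, 1525, 1024, 981 and 927 HKO barcodes after the limits on UMIs, Alb, mitochondrial share, Glul and other markers. UMIs were summed per zone and divided by their total (CPM). Ratios have exact intervals conditional on the summed count, and a count of 0 allows up to 3. Genes were tabulated at a mean of at least 10 CPM. Named genes were the 10 highest and 10 lowest ratios at 50 CPM or more with at most 25% of UMIs in 1 barcode, and, at 50 CPM or more in both libraries, the 10 most zoned genes outside the score on each side and the 5 whose gradient differed most in each direction (with the same limit on 1 barcode in both outer zones), and genes of the lists; Mup20 was given more room after its values were seen. The members and lists were chosen with earlier results of these data known. The gene IDs matched GENCODE M21 in 32158 of 32285 cases, and positions are from that annotation. Ratios were checked on counts simulated with counting error only, so the check says nothing about variation among barcodes or animals. The software was scipy 1.17.1, pandas 2.3.3, numpy 2.4.6 and matplotlib 3.10.9 under Python 3.11.15. Alternatives were another CPM minimum (1 or 50), a fold of 2, scaling to nuclear-encoded UMIs or to a median of 0, thinning to 5000 UMIs, at least 10000 UMIs, the deepest 5% left out, no other marker, barcodes weighted equally, 1 pair of cuts for both libraries, 4 groups in place of 3, and score genes weighted equally. Some genes of the lists are counted but not reported here by name.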

Additional observations from a re-analysis of the deposited data

How the results depend on the processing

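Counts of genes depended on where the limits were set. For HKO over WT in periportal cells the counts of higher and lower genes were 663 and 1186 at a minimum of 1 CPM, 43 and 104 at 50 CPM, and 30 and 69 at 2-fold. Thinning to 5000 UMIs, which leaves fewer counts per gene, gave 341 and 792, and weighting barcodes equally gave 544 lower. For periportal over pericentral in WT they were 487 and 1467 at 1 CPM, 55 and 151 at 50 CPM, 55 and 142 at 2-fold, 258 and 849 after thinning, and 202 and 264 with the median set to 0. In HKO they were 621 and 1895, 64 and 132, 56 and 159, 280 and 863, and 265 and 323. Under the other settings the counts stayed within 1.5 times, and lower genes outnumbered higher ones in every setting run. Of the named genes past 1.5-fold, 75 between the genotypes, 98 between the zones in WT and 109 in HKO, each kept its direction under the settings run, of which the CPM minimums cannot change a ratio. Not all stayed past 1.5-fold. Of their values over the settings, 869 of 900, 1099 of 1176 and 1238 of 1308 did. No paired analysis was possible because there was 1 library per genotype. Among gene groups, the medians of metallothioneins and zinc transport, miR-33 targets, cholesterol synthesis, fatty acid oxidation, amino acid breakdown and the urea cycle lay on either side of 0 depending on the setting, and the others between the genotypes did not. Depth limits genes under about 10 CPM, and nothing here measures the spread between animals.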
